A study of Mus musculus with 22 samples.

Results

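TGF-beta, BMP, activin and SMAD genes were followed in whole testes of mice that lack MLX (MAX-Like protein X), a partner of the glucose-sensing transcription factors of the extended MYC network. The genes were chosen by symbol from the count table: TGF-beta ligands and receptors, BMP and GDF ligands, BMP and activin receptors, *Amhr2*, SMADs, latent TGF-beta binding proteins, follistatin and the follistatin-like genes, *Nodal* and the Lefty genes. The rule took 55 of 17931 gene symbols, called the TGF-beta family genes here. Of these, 44 passed the filter on low counts and were tested among 14640 genes, and 11 had too few counts.

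RNA sequencing was carried out on whole testes of 3 wild-type (WT) males, which had bred successfully, and 3 constitutive *Mlx* knockout (MLX KO) males, all 7 months old and age-matched littermates that the sample titles number as pairs. No animal was treated. The KO allele was made in 129S4 AK7 embryonic stem cells and lacks exons 3 to 6 of *Mlx*, which encode the dimerization and DNA-binding region. It was deleted in the whole body with a Meox2-Cre allele that was then crossed out, so every cell type of the testis carries the deletion. The methods describe independent lines without saying which one the sequenced males came from.

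TGF-beta, activin, BMP and GDF ligands are secreted dimers that bring type II and type I receptor kinases together at the cell surface. The active type I receptor phosphorylates receptor SMADs, SMAD2 and SMAD3 for TGF-beta and activin or SMAD1, SMAD5 and SMAD9 for BMPs, which enter the nucleus with the common SMAD4. In the testis, activins, inhibins and anti-Müllerian hormone are known as signals of Sertoli cells, and BMPs as signals to germ cells and somatic cells.

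Each library held between 16674678 and 19742726 counts. Levels are given as CPM (counts scaled to a common library size, here with TMM adjustment), as mean ± SD of 3 libraries. Differences are log2 fold changes (LFC) of MLX KO against WT from edgeR's quasi-likelihood test, with standard error (SE) and a Benjamini-Hochberg adjusted p over all genes tested, and a gene was called past an adjusted p of 0.05. *Mlx* was counted 128, 96 and 98 times in WT libraries and 94, 109 and 102 times in MLX KO. The counts are not split by exon, and 19.3% of the exon bases of *Mlx* overlap *Psmc3ip*, so the count does not check the genotype. The library KO1 stood apart from the other MLX KO libraries: its counts differed from those of KO2 and KO3 by a chi-square of 8.26 and 8.25 per degree of freedom, against 2.73 between KO2 and KO3 and at most 4.26 between WT libraries.

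Of the 44 TGF-beta family genes tested, 24 were called, or 54.5%, against 45.4% of all genes tested. In MLX KO testes 21 rose, or 47.7%, against 24.8% of all genes, and 3 fell, or 6.82%, against 20.6% of all genes. The median LFC was 0.38, against 0.03 for all genes tested. In 25 of the 44, or 56.8%, the 3 MLX KO libraries lay above or below all 3 WT libraries, close to the 56.2% of all genes tested. The MLX KO libraries lay above in 22 of these 25, against 4435 of the 8225 such genes among all genes tested. Each of the 24 called genes moved the same way in 3 of 3 pairs. So did nearly all called genes of the whole table, 3600 of 3634 called higher and 2998 of 3015 called lower. The pairs are the same libraries that gave the calls, so this adds no separate evidence. The largest changes were those of *Fst*, *Ltbp1*, *Acvrl1* and *Smad3*, the 4 called genes with an absolute LFC over 1. When CPM was scaled by library size alone, 22 of these 44 genes were called higher and 0 lower. Of all 14640 genes tested, 5343 were then called higher and 1268 lower, so more of all genes were called higher too. That scaling moves the median LFC of all genes from 0.03 to 0.16.

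**Figure D1:**
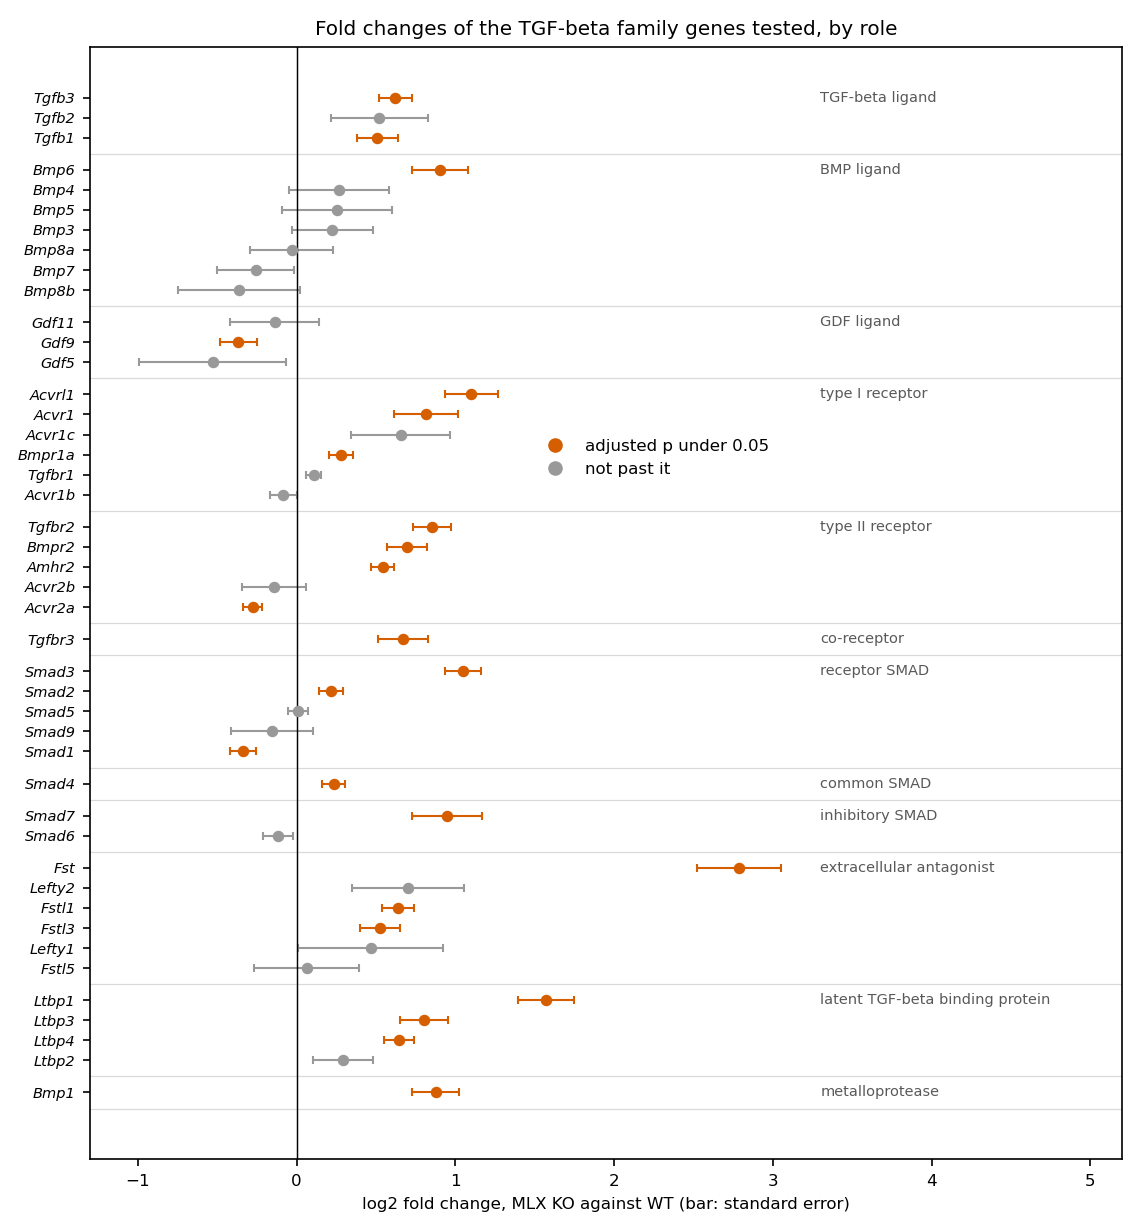
Log2 fold change of MLX KO against WT testes for each of the 44 TGF-beta family genes tested, grouped by role. Points are estimates from edgeR on 3 against 3 libraries and bars are standard errors; the 24 genes past an adjusted p of 0.05 are coloured, 21 of them to the right of 0 and 3 to the left.

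Whole testes hold germ cells and somatic cells together, and fewer cells of a type cannot be told apart from less RNA per cell in these libraries. Markers of somatic cells moved with the TGF-beta family genes. All 11 Sertoli markers tested rose, their summed CPM being 1053 to 1103 in WT libraries against 1605 to 1926 in those of MLX KO, and *Krt18*, the other listed marker, had 3 to 9 counts a library. All 8 Leydig markers rose, their summed CPM being 865 to 885 against 1859 to 2446.

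Of 9 macrophage markers 8 rose and *Aif1* fell, and since *Aif1* made up most of their sum, the summed CPM was 447 to 465 in WT and 452 to 486 in MLX KO libraries. Of 8 endothelial markers 3 rose, with sums of 38.3 to 48.2 and 55.4 to 62.2 CPM. Of 6 peritubular myoid markers 4 rose and *Actg2* fell, with sums of 310 to 369 and 309 to 325 CPM. *Actg2* made up most of these sums, at a mean of 267 CPM in WT and 204 CPM in MLX KO. The other 5 myoid markers had a positive LFC. Each marker had counts in every library, so 0 of the lists had a defining marker at 0.

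Germ cell markers moved mostly the other way. Of 8 spermatogonia markers 2 rose and 1 fell, of 10 spermatocyte markers 7 fell, and all 8 round spermatid and all 10 elongating spermatid markers fell. The summed CPM in WT and MLX KO libraries was 1424 to 1478 and 1250 to 1341 for spermatogonia, 5343 to 5483 and 4422 to 4875 for spermatocytes, 1944 to 1985 and 1625 to 1725 for round spermatids, and 28267 to 29275 and 17396 to 20997 for elongating spermatids. *Ddx4*, a pan-germ-cell marker in the paper, and *Dmrtb1* made up most of the spermatogonia sum. Their means were 711 and 647 CPM in WT against 656 and 512 CPM in MLX KO. Of the 8 spermatogonia markers, 4 had a positive and 4 a negative LFC, so the sum does not stand for the list. With library size alone, 40 of the markers of all lists were called higher and 19 lower, against 36 and 28 in the test used here. The part of these marker changes in the changes of the TGF-beta family genes was not tested.

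Promoter sequence is shown for *Ltbp1* and *Smad3*, which were among the genes with the largest changes, and for *Bmp6*. Among the called genes whose promoters were searched, only *Bmp6* held a CACGTG motif. The search covered 49 RefSeq promoters (GRCm38.p6) of 38 of the 55 genes, not every promoter of the family. The called genes *Fst*, *Acvrl1*, *Smad2*, *Smad4*, *Smad7*, *Tgfb3*, *Tgfbr3*, *Gdf9* and *Bmp1* were not among them, so their promoters were not searched for either motif. CACGTG is the E-box that dimers of the MYC and MLX networks bind. It lay on either strand within the 250 bases before the start in 5 of the 49 promoters, or 10.2%. These were promoters of *Acvr1b*, *Bmp4*, *Bmp6*, *Gdf15* and *Tgfb2*. The share was 6.02% of the 32851 promoters searched in all, which belong to 27025 genes. CAGAC or its reverse GTCTG, the short element that SMAD3 and SMAD4 bind, lay in 23 of the 49, or 46.9%. The share was 42.2% of the 32851 promoters. These motifs share no bases with CACGTG in the sequences below. Each sequence is the 250 bases before a RefSeq start, read 5′ to 3′ on the strand of the gene, with both motifs in capitals: chr13:38345466-38345715 on the plus strand for *Bmp6*, chr17:75178531-75178780 on the plus strand for the downstream of the starts of *Ltbp1*, and chr9:63757995-63758244 on the minus strand for *Smad3*.
*Bmp6*: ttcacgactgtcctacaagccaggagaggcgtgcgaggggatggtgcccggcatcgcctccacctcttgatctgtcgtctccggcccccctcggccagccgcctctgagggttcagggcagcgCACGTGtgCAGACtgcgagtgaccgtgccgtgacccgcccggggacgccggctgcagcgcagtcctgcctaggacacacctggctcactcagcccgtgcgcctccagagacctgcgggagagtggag
*Ltbp1*: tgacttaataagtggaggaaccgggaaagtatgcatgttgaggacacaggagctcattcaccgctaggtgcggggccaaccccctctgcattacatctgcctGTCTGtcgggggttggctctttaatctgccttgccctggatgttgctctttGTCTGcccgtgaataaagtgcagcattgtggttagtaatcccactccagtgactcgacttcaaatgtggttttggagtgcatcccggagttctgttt
*Smad3*: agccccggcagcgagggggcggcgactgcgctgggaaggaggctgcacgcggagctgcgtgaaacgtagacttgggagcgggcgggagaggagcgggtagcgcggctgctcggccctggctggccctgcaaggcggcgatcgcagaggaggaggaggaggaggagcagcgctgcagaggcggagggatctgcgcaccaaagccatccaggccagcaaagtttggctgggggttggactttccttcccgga
The CACGTG of *Bmp6* began 127 bases before the start, and 1 CAGAC followed it. The *Ltbp1* promoter shown held GTCTG at 2 places, and that of *Smad3* held neither motif. The promoter of the upstream start of *Ltbp1*, chr17:75005279-75005528, held GTCTG at 1 place and is not printed because it runs past the annotated start of the gene at 75005480. A match is a description of the letters in the window, and binding of MLX or a SMAD at these promoters was not analysed here.

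Among the ligands, the TGF-beta genes *Tgfb1* and *Tgfb3* and the BMP gene *Bmp6* rose, and *Gdf9* fell. *Tgfb1*, the most widely expressed TGF-beta, had 158, 141 and 171 counts in the WT libraries against 207, 236 and 276 in those of MLX KO, an LFC of 0.51 (SE 0.13, adjusted p = 0.00733). *Tgfb3* was counted 155, 143 and 179 times in WT libraries and 258, 267 and 265 times in MLX KO, an LFC of 0.62 (SE 0.11, adjusted p = 0.000819). In both genes every MLX KO library lay above every WT library. Of the exon bases of *Tgfb3*, 12.4% overlap other annotated genes, and whether the counting used strand is not given in the sources used here. *Tgfb2*, at 12 to 29 counts a library, was at 0.797 ± 0.0869 CPM in WT and 1.15 ± 0.341 CPM in MLX KO (LFC 0.52), did not pass the test, and its groups overlapped.

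*Bmp6* was the 1 BMP ligand of 7 tested that was called, or 14.3%, against 45.4% of all genes tested. It was counted 39, 31 and 43 times in WT and 70, 76 and 81 times in MLX KO libraries, an LFC of 0.90 (SE 0.18, adjusted p = 0.00181). This was 2.15 ± 0.241 CPM in WT and 4.03 ± 0.369 CPM in MLX KO testes, with no overlap. *Bmp6* lies on chromosome 13 of mm10 from 38345716 to 38500314.

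The other 6 BMP ligands tested did not pass, and all of their groups overlapped. *Bmp7*, which takes part with the Bmp8 genes in the upkeep of spermatogenesis, was at 4.12 ± 1.5 CPM in WT and 3.46 ± 0.509 CPM in MLX KO (LFC -0.26). *Bmp4*, a signal for germ cell specification in the embryo, was at 0.645 ± 0.178 and 0.782 ± 0.0548 CPM (LFC 0.27). *Bmp3*, an atypical BMP that opposes others, was at 1.19 ± 0.235 and 1.4 ± 0.192 CPM (LFC 0.23). These levels are low, with at most 102 counts in any library, that of *Bmp7* in WT3.
*Bmp8a* was at 1.63 ± 0.254 CPM in WT and 1.6 ± 0.412 CPM in MLX KO (LFC -0.03). *Bmp8b* was at 1.39 ± 0.351 and 1.08 ± 0.621 CPM (LFC -0.36). *Bmp8a* and *Bmp8b* are close paralogs whose reads may be split between them, so both are uncertain. *Bmp5* was at 0.731 ± 0.19 and 0.867 ± 0.277 CPM (LFC 0.26), with 46.7% of its exon bases overlapping another annotated gene, and the overlap was 12.2% for *Bmp8b*.

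*Gdf9*, best known as a growth factor of the oocyte, was the ligand with the highest level per kb of exon in WT testes among the 55 genes of the rule, at 5.17 CPM per kb. The inhibin subunit genes *Inha* and *Inhbb*, which the rule does not take, were higher, at 36.9 and 6.27 CPM per kb. *Gdf9* had 222, 158 and 173 counts in the WT libraries against 170, 152 and 138 in those of MLX KO, an LFC of -0.37 (SE 0.12, adjusted p = 0.0267). The CPM values of the groups, 10.5 ± 1.05 and 8.16 ± 0.763, did not overlap. *Gdf9* missed the threshold without WT1 (adjusted p = 0.116), without KO2 (adjusted p = 0.0556), without KO3 (adjusted p = 0.115) and without pair 1 (adjusted p = 0.0623), with library size alone (adjusted p = 0.149) and with DESeq2 and the pair as a block (adjusted p = 0.128). *Gdf11* (0.881 ± 0.063 CPM in WT and 0.796 ± 0.115 CPM in MLX KO, LFC -0.14) and *Gdf5* (0.627 ± 0.35 and 0.447 ± 0.14 CPM, LFC -0.53, 40.3% of exon bases overlapping another gene) did not pass.

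The 11 genes under the filter were nearly all ligands, with at most 19 counts in a library. *Bmp2* was counted 1, 0 and 0 times in WT libraries and 7, 5 and 5 times in MLX KO, at least 1.74-fold higher in MLX KO when WT is set to a floor of 3 counts per library. *Gdf10* was counted 4, 3 and 6 times in WT and 16, 9 and 19 times in MLX KO libraries. Without the filter these 2 genes were also called, *Gdf10* with an LFC of 1.62 (adjusted p = 0.0139) and *Bmp2* with an adjusted p of 0.00894. *Gdf3* had 5, 3 and 3 counts in the WT libraries against 0, 2 and 2 in those of MLX KO. *Bmp15*, *Nodal*, *Gdf2*, *Gdf6* and *Gdf7* had 0 to 5 counts, *Gdf15* had 4 to 8, *Bmpr1b* 5 to 12 and *Fstl4* 2 to 9 counts a library. Such counts do not allow an absence to be told from a low level.

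**Figure D2:**
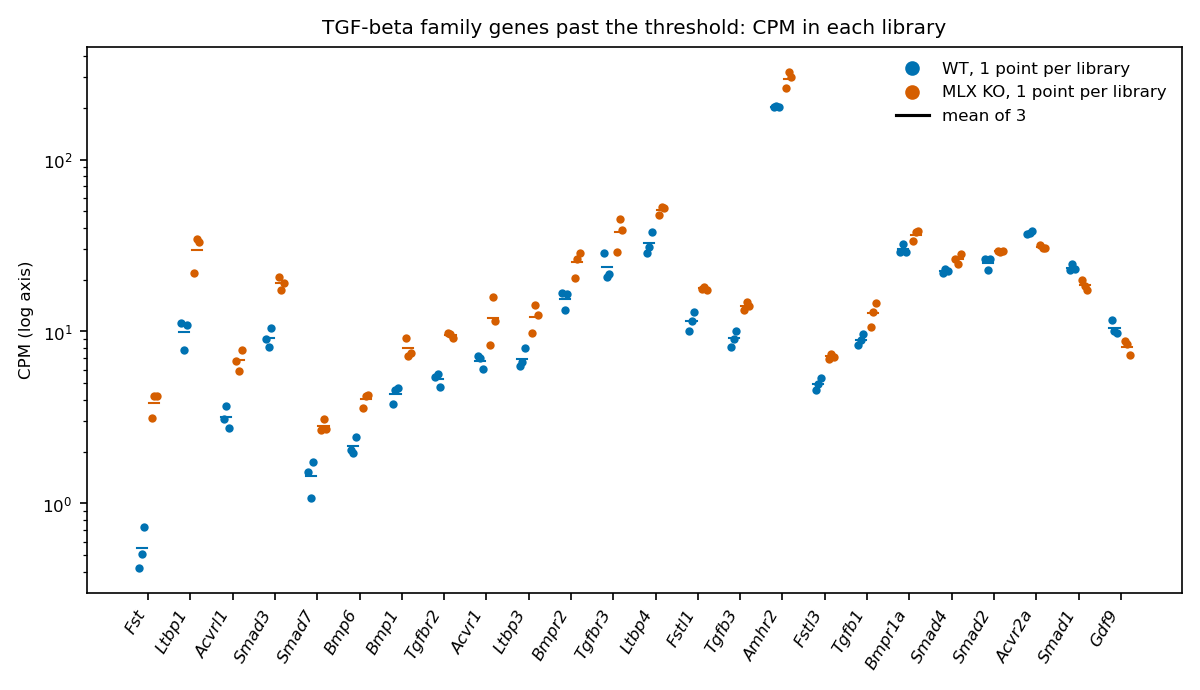
CPM on a log axis in each library for the 24 called TGF-beta family genes, ordered by log2 fold change from left to right. Each point is 1 library, WT or MLX KO, and bars mark means of 3; Fst, at 0.555 CPM in WT and 3.86 CPM in MLX KO, has the largest gap, and Amhr2 the highest level.

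Of the 6 type I receptors tested, *Acvrl1*, *Acvr1* and *Bmpr1a* rose and none fell. That is 50%, against 24.8% of all genes tested called higher and 45.4% called in either direction. *Acvrl1*, the receptor through which endothelial cells read circulating BMPs, was counted 59, 58 and 49 times in WT libraries and 131, 106 and 148 times in MLX KO, an LFC of 1.10 (SE 0.17, adjusted p = 0.000405). It rose 2.15-fold, from 3.19 ± 0.467 to 6.82 ± 0.987 CPM, with every MLX KO library above every WT library. Beside it, the endothelial markers *Kdr*, *Cdh5* and *Esam* rose while *Pecam1*, *Tek*, *Tie1*, *Emcn* and *Vwf* did not pass. All 8 of these markers had a positive LFC, with a median of 0.58. *Acvrl1* lies on chromosome 15 from 101128522 to 101145336, near *Acvr1b*, which did not pass (18.1 ± 1.35 CPM in WT and 17.1 ± 0.769 CPM in MLX KO, LFC -0.08).

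*Acvr1*, a type I receptor for BMPs and activins, was counted 137, 110 and 107 times in WT and 161, 287 and 218 times in MLX KO libraries, an LFC of 0.81 (SE 0.20, adjusted p = 0.00695). The lowest MLX KO library was KO1, and the log2 ratio was 0.20 in pair 1, 1.18 in pair 2 and 0.94 in pair 3. *Bmpr1a*, a main type I receptor of BMPs, was at 30.1 ± 1.76 CPM in WT and 36.6 ± 2.73 CPM in MLX KO (1.22-fold, adjusted p = 0.0105). With DESeq2 and the pair as a block its adjusted p was 0.0958.

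*Tgfbr1*, the type I receptor of TGF-beta, had 956 to 1304 counts a library and did not pass (61.6 ± 1 CPM in WT and 66.3 ± 1.38 CPM in MLX KO, LFC 0.11, adjusted p = 0.0914). Its 3 MLX KO libraries lay above the WT libraries, and it was called with library size alone (LFC 0.25, adjusted p = 0.00234). *Acvr1c*, a receptor of activins and *Nodal*, had 20, 15 and 17 counts in the WT libraries against 18, 34 and 36 in those of MLX KO (LFC 0.66, adjusted p = 0.106), with KO1 among the WT values. Without KO1 it was called, with an LFC of 0.93 (adjusted p = 0.0107), and without pair 1 likewise (LFC 0.98, adjusted p = 0.0198).

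Of the 5 type II receptors, *Tgfbr2*, *Bmpr2* and *Amhr2* rose and *Acvr2a* fell. These are 60% and 20%, against 24.8% and 20.6% of all genes tested. *Tgfbr2*, the ligand-binding receptor of TGF-beta, was counted 103, 89 and 84 times in WT libraries and 190, 175 and 172 times in MLX KO, an LFC of 0.85 (SE 0.12, adjusted p = 0.000251). Its partner *Tgfbr1*, with 9.42 CPM per kb of exon against 0.644 for *Tgfbr2* in WT, did not pass, as given above. *Bmpr2*, the type II receptor of BMPs, was counted 317, 211 and 291 times in WT and 399, 478 and 539 times in MLX KO libraries, an LFC of 0.69 (SE 0.13, adjusted p = 0.00122). The log2 ratio of *Bmpr2* was 0.30 in pair 1 and 0.98 and 0.80 in pairs 2 and 3.

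*Amhr2*, the receptor of anti-Müllerian hormone, had by far the highest level per kb of exon in the family. It had 3807, 3218 and 3589 counts in the WT libraries against 5020, 5848 and 5715 in those of MLX KO, an LFC of 0.54 (SE 0.07, adjusted p = 0.000178). The WT libraries hardly differed, at 203 ± 1.97 CPM, and the MLX KO libraries spread more, at 295 ± 32.9 CPM, with KO1 lowest. *Amhr2* lies on chromosome 15 from 102445002 to 102454640. It is a gene of Sertoli and Leydig cells, whose marker sums rose as given above.

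*Acvr2a*, the activin receptor with the highest level per kb here, was counted 698, 586 and 681 times in WT libraries and 613, 552 and 579 times in MLX KO. It fell in CPM from 37.5 ± 0.824 to 30.9 ± 0.595 (LFC -0.28, adjusted p = 0.00332), with no overlap between groups. With library size alone the LFC was -0.14 and the adjusted p 0.0845. *Acvr2b*, the other activin type II receptor, did not pass (2.13 ± 0.149 CPM in WT and 1.94 ± 0.242 CPM in MLX KO, LFC -0.14).

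*Tgfbr3*, the co-receptor betaglycan that presents TGF-beta2 and inhibin, was counted 545, 325 and 381 times in WT and 560, 817 and 738 times in MLX KO libraries, an LFC of 0.67 (SE 0.16, adjusted p = 0.00544). WT1 and KO1 were almost equal, with a log2 ratio of 0.01 in pair 1 against 1.13 and 0.86 in pairs 2 and 3. With DESeq2 and the pair as a block it was not called (LFC 0.64, adjusted p = 0.131).

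Across the 21 genes that rose, KO1 had the lowest CPM of the MLX KO libraries in 14, KO2 in 5 and KO3 in 2. The ratio within a pair was smallest in pair 1 for 8 genes, in pair 2 for 4 and in pair 3 for 9. Without KO1 25 genes were called, and without pair 1 23 were. KO1 also had the lowest summed CPM of Sertoli, Leydig and endothelial markers among MLX KO libraries. It had the highest of macrophage and peritubular myoid markers and of each germ cell list. The part of these sums in the gaps was not tested.

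**Figure D3:**
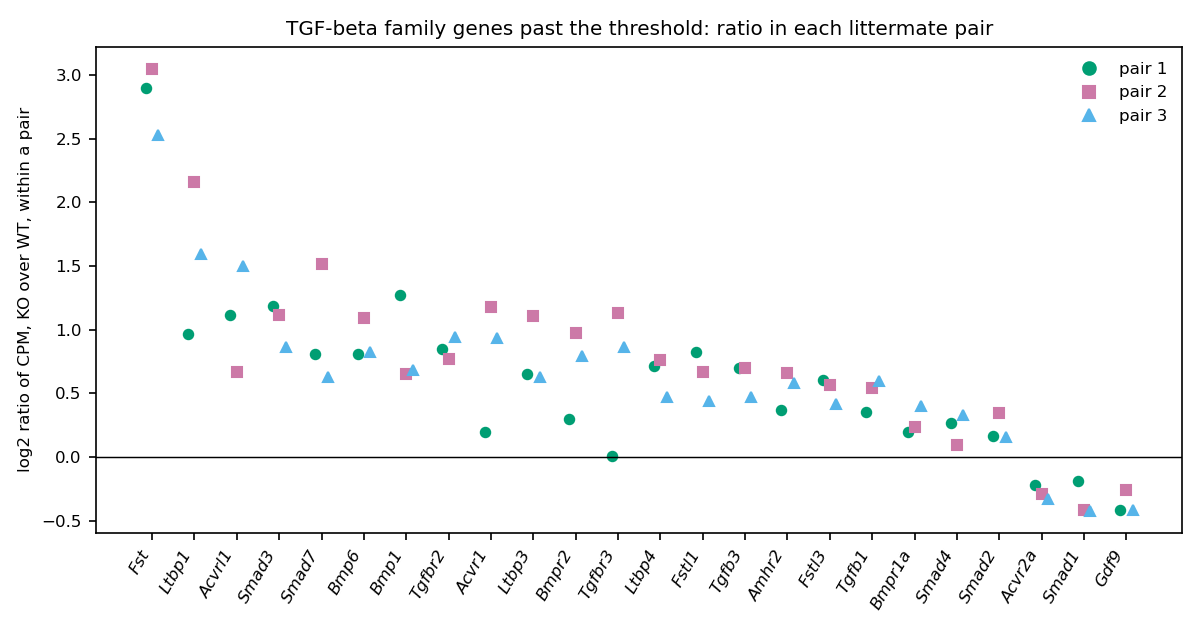
Log2 ratio of CPM, MLX KO over WT, within each of 3 littermate pairs for the 24 called TGF-beta family genes, ordered by log2 fold change. Each symbol is 1 pair and all ratios of a gene lie on the same side of 0; pair 1 is well below the others for Ltbp1, Acvr1, Bmpr2 and Tgfbr3.

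Among the receptor SMADs, those of the TGF-beta and activin branch rose and those of the BMP branch did not. *Smad3* had 172, 127 and 186 counts in the WT libraries against 401, 317 and 360 in those of MLX KO, an LFC of 1.05 (SE 0.11, adjusted p = 4.54e-05). That is 2.07-fold, from 9.21 ± 1.21 to 19.1 ± 1.57 CPM, with no overlap, and the call held in each of the 14 alternatives. *Smad3* lies on chromosome 9 from 63646766 to 63757994. *Smad2*, the other SMAD of this branch, was at 25.1 ± 2.06 CPM in WT and 29.3 ± 0.301 CPM in MLX KO (1.16-fold, adjusted p = 0.0345). Its call was lost without WT2 (adjusted p = 0.149), without KO2 (adjusted p = 0.0665), without KO3 (adjusted p = 0.0788), with DESeq2 (adjusted p = 0.151), with DESeq2's size factors (adjusted p = 0.054) and with DESeq2 and the block (adjusted p = 0.274).

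*Smad1*, of the BMP branch, fell. It was counted 431, 388 and 412 times in WT libraries and 387, 334 and 328 times in MLX KO, an LFC of -0.34 (SE 0.08, adjusted p = 0.00572), and with library size alone the LFC was -0.20 (adjusted p = 0.0572). *Smad5* (37.8 ± 1.67 CPM in WT and 38 ± 1.18 CPM in MLX KO, LFC 0.01) and *Smad9* (1.94 ± 0.47 and 1.73 ± 0.381 CPM, LFC -0.15) did not pass, and the groups overlapped for both. Whether the branches differed from each other was not tested.

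*Smad4*, the common partner of both branches, was at 22.5 ± 0.7 CPM in WT and 26.4 ± 1.64 CPM in MLX KO (1.18-fold, adjusted p = 0.0244). Its call was lost without WT1, WT3, KO3 or pair 1 (adjusted p = 0.0842, 0.0669, 0.0945 and 0.0709), with DESeq2 (adjusted p = 0.13) and with DESeq2 and the block (adjusted p = 0.275). *Smad7*, which blocks type I receptors and is itself induced by the pathway, was counted 29, 17 and 31 times in WT and 52, 56 and 51 times in MLX KO libraries, an LFC of 0.95 (SE 0.22, adjusted p = 0.00513). The groups of *Smad7* did not overlap, and with DESeq2 and the block its adjusted p was 0.0776. *Smad6*, which acts mainly on the BMP branch, did not pass (18.5 ± 2.02 CPM in WT and 17 ± 0.642 CPM in MLX KO, LFC -0.12).

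The largest change of the family was that of *Fst*, which encodes follistatin, a secreted protein that binds and neutralizes activins. *Fst* had 8, 8 and 13 counts in the WT libraries against 61, 76 and 80 in those of MLX KO, an LFC of 2.79 (SE 0.26, adjusted p = 2.34e-05). It rose 6.9-fold, from 0.555 ± 0.161 to 3.86 ± 0.62 CPM, with log2 ratios of 2.90, 3.05 and 2.53 in the pairs. Even the lowest MLX KO library had more than the highest WT library by a wide margin, and its call held in each of the 14 alternatives. *Fst* lies on chromosome 13 from 114452262 to 114458989.

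The related genes *Fstl1* and *Fstl3* also rose. *Fstl3*, a second binder of activins and myostatin, was counted 87, 78 and 95 times in WT libraries and 135, 133 and 135 times in MLX KO, an LFC of 0.53 (SE 0.12, adjusted p = 0.00543). Of its exon bases 47.3% overlap *Prss57*, and with DESeq2 and the block its adjusted p was 0.117. *Fstl1*, a secreted glycoprotein of mesenchymal cells, was counted 190, 181 and 229 times in WT and 344, 330 and 331 times in MLX KO libraries, an LFC of 0.64 (SE 0.10, adjusted p = 0.000559). The MLX KO libraries of both genes lay within a narrow range above the WT libraries.
*Fstl5* (0.621 ± 0.154 CPM in WT and 0.655 ± 0.0949 CPM in MLX KO, LFC 0.06) did not pass. *Lefty1* and *Lefty2*, antagonists of *Nodal*, had 4 to 19 counts a library and LFCs of 0.47 and 0.70, which did not pass, at 0.435 ± 0.288 and 0.588 ± 0.114 CPM for *Lefty1* and 0.557 ± 0.192 and 0.906 ± 0.192 CPM for *Lefty2*. They are close paralogs and may share reads.

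Latent TGF-beta binding proteins hold inactive TGF-beta in the extracellular matrix, and 3 of the 4 rose, or 75%, against 24.8% of all genes tested. *Ltbp1* had 213, 122 and 193 counts in the WT libraries against 426, 627 and 622 in those of MLX KO, an LFC of 1.57 (SE 0.18, adjusted p = 6.49e-05). It rose 2.98-fold, from 9.96 ± 1.91 to 29.9 ± 6.89 CPM, and KO1 was the lowest of the MLX KO libraries, with a log2 ratio of 0.97 in pair 1 against 2.16 and 1.60 in pairs 2 and 3. *Ltbp1* lies on chromosome 17 from 75005480 to 75392512.
*Ltbp3* was counted 119, 104 and 142 times in WT libraries and 191, 258 and 234 times in MLX KO, an LFC of 0.80 (SE 0.15, adjusted p = 0.00148). *Ltbp4*, with the highest level per kb of exon of these genes, was counted 546, 487 and 669 times in WT and 917, 951 and 991 times in MLX KO libraries, an LFC of 0.64 (SE 0.09, adjusted p = 0.000301). For all 3 genes the groups did not overlap. *Ltbp2*, a matrix protein that does not bind latent TGF-beta, did not pass (4.57 ± 1.08 CPM in WT and 5.59 ± 0.729 CPM in MLX KO, LFC 0.29).

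*Bmp1* matches the rule by its name but encodes a metalloprotease, which processes procollagen and the BMP antagonist chordin. It had 72, 72 and 83 counts in the WT libraries against 178, 130 and 142 in those of MLX KO, an LFC of 0.88 (SE 0.15, adjusted p = 0.000778). Here KO1 was the highest MLX KO library, with 9.18 CPM.

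Levels were compared between genes per kb of exon (GENCODE vM21). In WT testes *Amhr2* stood first at 101 ± 0.981 CPM per kb, followed by *Tgfbr1* at 9.42 ± 0.153, *Acvr2a* at 6.59 ± 0.145 and *Smad4* at 6.05 ± 0.189 CPM per kb. The libraries of each of the first 3 lay wholly above those of the next gene in the order. From *Smad4* down to *Bmpr1a*, at 4.74 ± 0.277 CPM per kb, neighbours in the order (*Smad6*, *Gdf9*, *Smad5*, *Ltbp4*) overlapped. Below, only *Bmpr1a* and *Tgfbr3* were apart from the gene after them. In MLX KO testes *Amhr2* and *Tgfbr1* stayed first and second in the order, at 147 ± 16.4 and 10.1 ± 0.211 CPM per kb, while *Fst* moved from rank 43 to rank 28 and *Acvr2a* from rank 3 to rank 7. Summed per kb, the latent TGF-beta binding proteins were at 6.61 to 8.42 CPM per kb in WT and 11.1 to 13.7 in MLX KO libraries, and the receptor SMADs at 13.6 to 13.8 and 14.8 to 15.7.

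**Figure D4:**
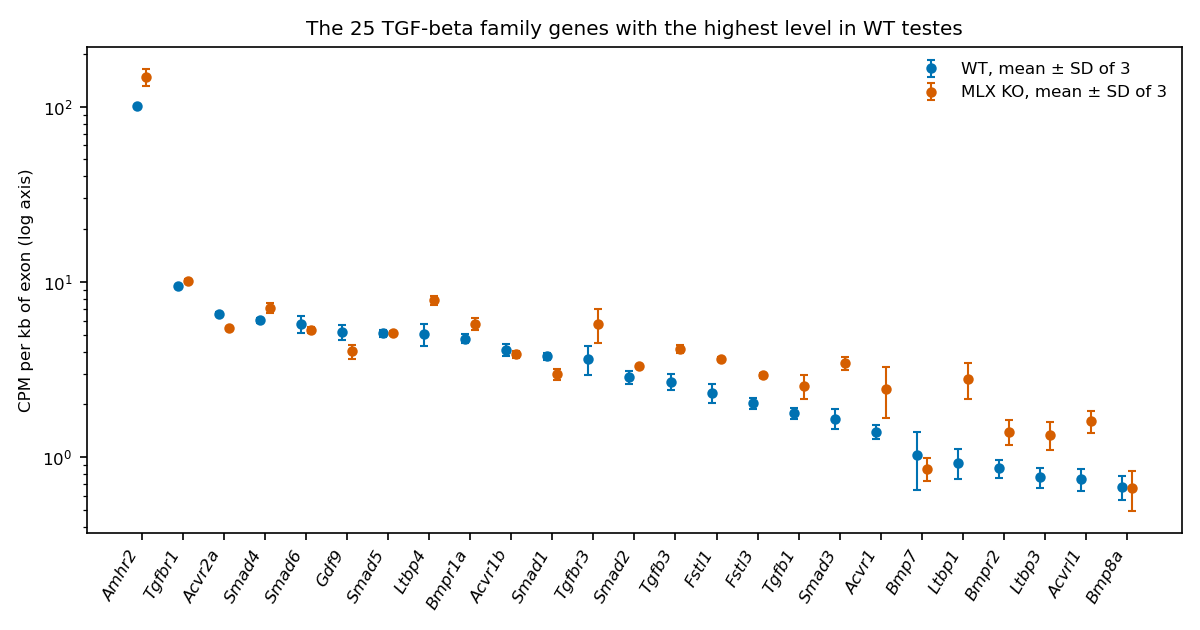
CPM per kb of exon on a log axis for the 25 TGF-beta family genes with the highest level in WT testes, in the order of that level. Points are means and bars are SD of 3 libraries in WT and MLX KO; Amhr2 stands about a log10 unit above the next gene, Tgfbr1, at 101 against 9.42 CPM per kb in WT.

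Other genes of the pathway, which the rule does not take, were read from a list. Of its 47 genes 37 were tested, and 14 rose and 3 fell, with a median LFC of 0.21. The 17 called are 45.9%, almost the 45.4% of all genes tested, with 37.8% higher and 8.11% lower against 24.8% and 20.6% of all genes. All 3 tested ligand or inhibin subunit genes rose, or 100%, against 24.8% of all genes. *Inha*, the inhibin alpha subunit, was counted 995, 868 and 984 times in WT libraries and 1692, 1935 and 1809 times in MLX KO (LFC 0.83, SE 0.07, adjusted p = 1.23e-05). *Inhbb*, the beta B subunit of inhibin and activin, was counted 465, 409 and 524 times in WT and 684, 584 and 674 times in MLX KO libraries (LFC 0.37, SE 0.08, adjusted p = 0.00382). *Inhba*, the beta A subunit, was under the filter with 1 to 7 counts a library. So the subunit genes with counts to test were higher in MLX KO testes, like the activin binders *Fst* and *Fstl3*. *Amh*, the ligand of *Amhr2*, had 29, 27 and 25 counts in the WT libraries against 75, 65 and 71 in those of MLX KO (LFC 1.27, SE 0.18, adjusted p = 0.000302), with no overlap in any of the tested subunit genes or *Amh*. *Inha*, *Inhbb* and *Amh* are products of Sertoli cells, whose 11 tested markers had a median LFC of 0.68.

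Of the 8 secreted antagonists tested in this list, 5 rose and 1 fell, or 62.5% and 12.5%, against 24.8% and 20.6% of all genes. *Chrd*, the BMP antagonist chordin, was counted 23, 25 and 30 times in WT libraries and 53, 129 and 132 times in MLX KO (LFC 1.90, SE 0.35, adjusted p = 0.0012), with KO1 well below KO2 and KO3. *Bmper*, a regulator of BMPs in endothelium, was counted 6, 8 and 6 times in WT and 26, 30 and 18 times in MLX KO libraries (LFC 1.76, SE 0.35, adjusted p = 0.00207). *Tdgf1*, the *Nodal* co-receptor Cripto, had the largest LFC of the list, with 5, 1 and 2 counts in WT libraries against 29, 22 and 20 in MLX KO (LFC 2.99, SE 0.43, adjusted p = 0.000319), and is uncertain because the genome holds close copies of it. *Itgav*, an integrin subunit that takes part in the activation of latent TGF-beta, had 182, 144 and 184 counts in the WT libraries against 339, 366 and 390 in those of MLX KO (LFC 1.00, SE 0.10, adjusted p = 3.06e-05). For all 4 genes the groups did not overlap.
Of 13 intracellular modulators tested, 1 rose and 2 fell, or 7.69% and 15.4%, against 24.8% and 20.6% of all genes. The 3 genes of the list that fell, named after their values were seen, were the antagonist *Dand5* (LFC -0.23), the ubiquitin ligase *Smurf2* (LFC -0.23) and the SMAD4 regulator *Trim33* (LFC -0.13), and with library size alone 0 were called lower.

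Of 20 tested genes known to respond to SMADs, 9 rose and 3 fell, with a median LFC of 0.36. These are 45% and 15%, or 60% called, against 24.8%, 20.6% and 45.4% of all genes tested. The collagen genes *Col1a1* (127, 126 and 134 counts in WT libraries against 275, 296 and 318 in MLX KO, LFC 1.09, adjusted p = 3.46e-05) and *Col1a2* (323, 282 and 358 against 697, 736 and 835 counts, LFC 1.13, adjusted p = 1e-05) rose without overlap. So did the transcription factor gene *Junb* (79, 69 and 73 against 237, 176 and 147 counts, LFC 1.23, adjusted p = 0.000223) and *Gadd45b* (80, 34 and 58 against 94, 145 and 129 counts, LFC 1.01, adjusted p = 0.00557), a stress-inducible gene. *Msx2*, a homeobox gene that BMPs induce, was counted 18, 1 and 7 times in WT libraries and 33, 22 and 20 times in MLX KO (LFC 1.42, adjusted p = 0.0388). In the BMP response list 2 of 6 tested genes rose and 2 fell (66.7% called), and in the TGF-beta response list 7 of 14 rose and 1 fell (57.1% called), against the same 45.4% of all genes. The 3 that fell, named after their values were seen, were the matrix gene *Postn* (LFC -0.73) and the transcription factor genes *Hey1* (LFC -0.56) and *Atoh8* (LFC -0.44). These genes respond to other signals too and are made by different cell types of the testis.

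**Figure D5:**
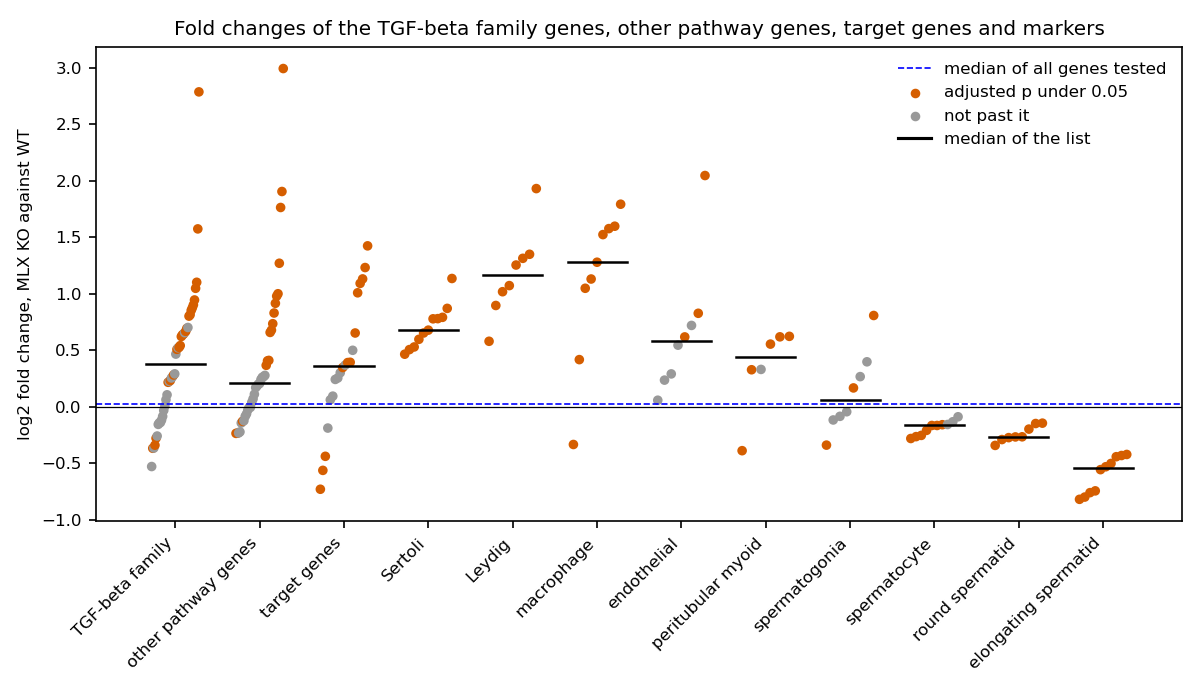
Log2 fold change of MLX KO against WT testes for each tested gene of the TGF-beta family, of the other lists of the pathway and its target genes, and of markers of 9 cell types. Points are genes, coloured where past an adjusted p of 0.05, and bars are medians: 0.38 for the family, 0.68 for Sertoli, 1.16 for Leydig and -0.54 for elongating spermatid markers.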

How the data were processed

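Trizol RNA of whole testes, 3 WT and 3 MLX KO, was sequenced as paired-end reads. The authors aligned reads to mm10 with TopHat and deposited raw counts per gene symbol for each library; base calls were made with bcl2fastq 1.8.4 per the submitters' processing notes, and the counting tool, annotation and strand setting are not given in the sources used here. The authors also deposited columns of their own comparison, namely a mean signal, log2 fold changes with standard errors, a test score, and p-values with adjusted values, and none of these were used.

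Of 17933 rows 2 repeated another and were used once. The counts were tested with edgeR 4.0.16 in R 4.3.3 (filterByExpr with a minimum count of 10, TMM, quasi-likelihood, genotype only), two-sided, with Benjamini-Hochberg adjustment over the 14640 genes tested. The alternatives were DESeq2 1.42.0, its size factors, library size alone, no filter, a minimum of 1 CPM in 3 libraries, a block for the littermate pair in edgeR and in DESeq2, and each library left out. Counts limit precision through their number, so genes of few counts have wide errors. The libraries hold 16674678 to 19742726 counts, and none of them duplicate each other. The statistics code was tested on simulated data.

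The numbers pair littermates per the labels and methods. Deviations from group means correlated at 0.145, 0.0363 and 0.121 within pairs and from -0.123 to 0.0330 otherwise, so pair 2 hardly stood apart. The p-values of the test used here weigh the difference between genotypes against the spread between these mice and leave out the pairing.

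Members and gene lists were chosen with earlier results of these data known. Genes were named by a rule: all of the family, and in other lists the 5 largest called changes with *Inha*, *Inhba*, *Inhbb* and *Amh*. Coordinates are from RefSeq (GRCm38.p6) and lengths from GENCODE vM21. ChIP-seq samples were not analysed here.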

Additional observations from a re-analysis of the deposited data

How the results depend on the processing

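In 14 alternatives, 15 of the 24 called genes passed in each, and all of these rose. The number called was 22 with DESeq2, 23 with its size factors, 22 with library size alone, 26 without the filter, 24 with at least 1 CPM in 3 libraries, 17 with DESeq2 and the replicate block (15 higher and 2 lower), 21 to 25 with 1 library left out, and 23 without pair 1, an alternative chosen after seeing the data. With edgeR and the replicate block it was 24, and that block changed no call of the family. Over all genes, edgeR called 3634 higher and 3015 lower, library size alone 5343 and 1268. The number of family genes and of other pathway genes called lower was 0 with library size alone, and that of other pathway genes called lower was 1 with DESeq2 and the replicate block and 1 to 3 with 1 library left out, being 1 without WT1, WT2, WT3, KO2 or KO3.

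Direction changed in 9 genes, 0 of them called. With library size alone the LFC was 0.11 for *Bmp8a*, 0.056 for *Acvr1b* and 0.023 for *Smad6*. For *Smad5* it was -0.023 with DESeq2, -0.019 with its size factors and -0.023 with DESeq2 and the block. Without pair 1 it was -0.19 for *Bmp5*, 0.22 for *Bmp8a* and 0.030 for *Gdf5*. With 1 library left out it ranged from -0.46 to 0.057 for *Bmp7*, -0.17 to 0.17 for *Bmp8a*, -0.031 to 0.033 for *Smad5*, -0.34 to 0.025 for *Smad9* and -0.11 to 0.19 for *Fstl5*. The cause was not tested. With 3 mice a group, a p that misses the threshold does not show that levels were equal.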
